A study of Mus musculus with 4 samples.

Results

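Kinesin and tubulin transcripts were followed in B16-F10 cells, a mouse melanoma line, after treatment with an agonist antibody to the immune checkpoint receptor TIM-3. The members were all non-control probes whose gene name in the array files begins with Kif and a digit or c, or with Tuba, Tubb or Tubg and a digit. They came to 94 of 41174 probes, for 50 gene names. Of these, 72 probes belonged to 35 kinesin names and 22 probes to 15 tubulin names. Signal after the goat polyclonal anti-mouse TIM3 antibody was read in Cy5, and signal after unspecific goat IgG in Cy3, each at 15 ug/ml for 2 h in cultured cells. The 4 arrays held passages 14, 16, 18 and 19 of the line, called replicates 1 to 4 here, so the replicates are passages of 1 line and not independent lines or animals. The antibody sample was always in Cy5, so dye bias and the response to the antibody cannot be told apart, and all 4 arrays lay on 1 slide. For replicate 3 the Cy5 treatment protocol is not repeated in the labels, and its source name gives the antibody.

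Kinesins are motor proteins that use ATP to move along microtubules. Mitotic kinesins build the spindle, move chromosomes and complete cytokinesis, and transport kinesins carry vesicles, organelles and RNA towards the cell periphery. Microtubules are polymers of alpha and beta tubulin heterodimers, and gamma tubulin nucleates them at centrosomes. In pigment cells, kinesins move melanosomes outwards along these tracks while dynein moves them back.

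Each ratio below is log2 of the anti-TIM3 over the IgG signal of the same array, after background correction and loess normalisation, so that a value above 0 is a higher signal after anti-TIM3. A probe was tested when 3 or more arrays had it well above background in Cy5 or Cy3, and it was called higher or lower when limma's adjusted p, over all 26545 tested probes, was under 0.05. All 22 tubulin probes and 55 of the 72 kinesin probes were tested. The other 17 were kinesin probes, and Kif12, Kif17, Kif1a, Kif27 and Kif2b had no tested probe. No probe of Kif17, Kif27 or Kif2b was well above background on any array. No member probe was saturated.

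The probes on which the results turn are printed here to show where in the genome each one reads (coordinates of build mm7) and how rich in G and C it is. G and C are in capitals. A probe that covers a stretch of the genome longer than itself, and so skips part of it, is printed whole. Of the others the first 30 of 60 bases are given. The coordinates of the Tuba1 probe cover 58 bases, and those of the brighter Kifc1 probe 53. Those of the Tubb2a probe called higher cover 30, so they do not place all of its 60 bases. The order of bases is that of the files. Whether a probe lies in coding or noncoding sequence is not stated in the files.
Tuba6, plus strand, chr15:99023456-99023515: tGtCtttGtGtGtGCtCtaaCtGtCCtaaa
Tuba1, minus strand, chr15:98935135-98935192: ttCataCaGttaCtGaCttatGaatGattG
Tubb2a, the probe called higher, minus strand, chr13:33491806-33491835: CttaGtGaaCttCtGttGtCCtCCaGCatt
Tubb2a, the probe called lower, minus strand, chr13:33493057-33493765: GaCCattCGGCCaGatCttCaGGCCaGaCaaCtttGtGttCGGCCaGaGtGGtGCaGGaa
Kif21b, the probe called higher, plus strand, chr1:136064121-136064180: tatttaaGCCtCatGCtGtaCatttCtGtt
Kif21b, the probe called lower, plus strand, chr1:136063364-136063423: GaGaaGatGCtGtCttGCtGaaGGattCtt
Kifc1, brighter probe, plus strand, chr17:25116898-25116950: GGtaCtGCtCaGGCtaataaGaaGtGaaGt
Kifc1, dimmer probe, plus strand, chr17:25110675-25111054: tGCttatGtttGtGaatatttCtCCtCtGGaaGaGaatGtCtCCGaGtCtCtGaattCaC

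Of the 77 tested member probes, 8 were higher and 21 lower after anti-TIM3. Among all tested probes 27.8% were called, 14.2% higher and 13.6% lower. The members' shares were 10.4% higher and 27.3% lower. Among kinesin probes, 4 of 55 (7.27%) were higher and 12 (21.8%) lower. Among tubulin probes, 4 of 22 (18.2%) were higher and 9 (40.9%) lower. The changes were small: the 29 called members had a median size of 0.17 on the log2 scale, 6 of them passed 1.2-fold in size and 1, Tuba6, passed 1.5-fold. All 29 had the same sign on all 4 arrays, which a call made on the same 4 ratios favours. Of all tested members 49.4% had the same sign on all 4 arrays, against 47.7% of all tested probes. The median log2 ratio was -0.03 over kinesin probes and -0.06 over tubulin probes, against 0.006 over all tested probes.

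The same members were read under other processing. In the deposited ratios 3 kinesin probes were higher and 7 lower, and 3 tubulin probes were higher and 8 lower, where 19.8% of all tested probes were called, 10.8% higher and 8.97% lower. After a further step, added once the data had been seen, that took out the trends of the ratio on intensity and probe base composition, kinesin probes had 4 higher and 14 lower and tubulin probes 2 and 7, where 26.3% of all were called, 13.1% higher and 13.2% lower. Of the 16 kinesin and 13 tubulin probes called, 9 and 9 kept their call in both. Tested against a 1.2-fold minimum change, Tuba6 was the only member called, where 0.211% of all tested probes were called, 0.162% higher and 0.049% lower. Centred on array medians with no loess, limma called 0.0% of all tested probes and 0 members. The medians of kinesin and tubulin probes were then 0.12 and 0.28, against 0.15 over all tested probes.

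Among the alpha tubulins, which hold the non-exchanged GTP of the heterodimer, Tuba6 rose 1.52-fold, while the probes of Tuba2, Tuba3 and Tuba4 that were called were all lower, although the brightest of each was above 0 (0.14, 0.27 and 0.48) with median centring and no loess. Tuba6 is Tuba1c in current naming. Its normalised intensities were 159595, 112942, 106663 and 103349 after anti-TIM3 in replicates 1 to 4, against 102678, 74038, 69675 and 69914 after IgG. It was the only called member whose anti-TIM3 and IgG intensities did not overlap between arrays, against 66 (0.895%) of all 7376 called probes. The log2 ratios were 0.64, 0.61, 0.61 and 0.56, with a mean of 0.61 ± 0.03 (SD, n = 4) and an adjusted p of 6.64e-05. Tuba6 was also the brightest member, with a mean log2 intensity of 16.55. The 50 tested probes between 16.5 and 17.0 had a median log2 ratio of 0.52, with a 5th to 95th percentile range of 0.19 to 0.71. With those trends removed, Tuba6 had a log2 ratio of 0.36 and kept its call (adjusted p = 0.000993). The deposited ratios gave 0.37 (adjusted p = 0.0144).

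Tuba1, now Tuba1a, had log2 ratios of 0.20, 0.14, 0.19 and 0.16 and was called higher (0.17 ± 0.03, SD, n = 4; adjusted p = 0.00694). That call did not carry over to other processing, where the ratio was -0.08 in the deposited values and -0.03 with the trends removed (adjusted p = 0.175 and 0.571). Its probe was likewise bright, at 16.02, in a range from 16 to 16.5 where the median of all tested probes was 0.27.

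Tuba2, now Tuba1b, had the lowest ratio of any member. Its intensities were 17666, 13593, 14896 and 12411 after anti-TIM3, against 23386, 17207, 17528 and 16500 after IgG. The anti-TIM3 signal was below the IgG signal on every array, with log2 ratios of -0.41, -0.34, -0.24 and -0.41 (mean -0.35 ± 0.08, SD, n = 4; adjusted p = 0.000956). The accession list of this probe names Tuba1a, Tuba1b and Tuba1c together, so which of the 3 close copies it reads cannot be told apart. The signal it gave ran opposite to that of the Tuba6 and Tuba1 probes on each of the 4 arrays.

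Tuba3, now Tuba3a, was lower at both of its probes, with log2 ratios of -0.37, -0.22, -0.19 and -0.37 at the brighter (mean -0.29, adjusted p = 0.00245) and -0.12, -0.21, -0.29 and -0.17 at the dimmer (mean -0.20, adjusted p = 0.00689). Both probes list Tuba3a and Tuba3b, and the brighter one matches the Tuba8 probe at 34 of 45 aligned bases. Tuba4, now Tuba4a, had 3 tested probes, 2 of them lower. The brightest had -0.19, -0.15, -0.08 and -0.12 (adjusted p = 0.021), and the dimmest -0.24, -0.15, -0.18 and -0.27 (adjusted p = 0.00406). The brightest lost its call without replicate 1, 2 or 4 (adjusted p = 0.0564, 0.0755 and 0.0602), and it had -0.23 in the deposited values and -0.22 with the trends removed. The remaining Tuba4 probe had a mean of -0.08 and did not pass (adjusted p = 0.194). Tuba8 was well above background on 4 arrays in Cy5 and 1 in Cy3, and its log2 ratios of 0.02, 0.08, -0.14 and -0.17 did not pass (adjusted p = 0.444).

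The beta tubulins, which carry the exchangeable GTP, had 2 of 11 tested probes (18.2%) higher and 4 (36.4%) lower. Over all tested probes these shares were 14.2% and 13.6%. In 1 of the 7 beta tubulin genes, Tubb2a, probes were called in both directions. Tubb2a had 3 tested probes. The probe called higher had intensities of 5406, 4039, 5120 and 4342 after anti-TIM3, against 5091, 3532, 4476 and 4068 after IgG, and log2 ratios of 0.09, 0.19, 0.19 and 0.09 (adjusted p = 0.0212). The probe called lower had 1390, 1046, 1211 and 1012 after anti-TIM3, against 1680, 1354, 1490 and 1325 after IgG, and log2 ratios of -0.27, -0.37, -0.30 and -0.39 (adjusted p = 0.000795). The 2 probes thus differed in sign on all 4 arrays. The brightest Tubb2a probe had -0.13, 0.02, 0.09 and -0.13 and did not pass (adjusted p = 0.547), and its accession list also names Tubb2b, Tubb3 and Tubb6.

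Tubb5, a widely expressed beta tubulin, was lower at its brighter probe, with log2 ratios of -0.13, -0.11, -0.15 and -0.18 (adjusted p = 0.0148), and lost its call without replicate 3 or 4 (adjusted p = 0.0534 and 0.0616). Its ratio was -0.34 in the deposited values, -0.26 with the trends removed and 0.51 with median centring and no loess. Its second probe, which matches the brightest Tubb2a probe at 22 of 25 aligned bases, had 0.06, 0.10, 0.15 and -0.02 and did not pass (adjusted p = 0.171). Tubb2c, now Tubb4b, had -0.36, -0.06, -0.01 and -0.34 and was lower (adjusted p = 0.0453). Tubb4, now Tubb4a, had -0.22, -0.10, -0.03 and -0.27 and was lower as well (adjusted p = 0.0306). In both, replicates 1 and 4 were the low ones, and neither passed in the deposited ratios (adjusted p = 0.221 and 0.146). With median centring and no loess they had 0.17 and 0.21, and with the trends removed neither passed (adjusted p = 0.0588 and 0.564). Tubb2c lost its call without replicate 1 or 4 (adjusted p = 0.172 and 0.164), and Tubb4 without replicate 1, 2 or 4 (adjusted p = 0.102, 0.0513 and 0.122).

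Tubb6 was called higher at its dimmer probe, with log2 ratios of 0.14, 0.17, 0.07 and 0.17 (adjusted p = 0.0214), but not at its brighter one, with 0.01, 0.11, 0.10 and 0.00 (adjusted p = 0.28). The dimmer probe did not pass with the trends removed (0.09, adjusted p = 0.0833). Tubb2b had 0.21, 0.28, -0.07 and 0.13, and Tubb3, a beta tubulin typical of neurons, had -0.09, -0.01, 0.05 and -0.12. Neither passed (adjusted p = 0.0874 and 0.442). The gamma tubulins did not pass either: Tubg1 had -0.19, 0.01, -0.03 and -0.20 (adjusted p = 0.121), and Tubg2 had -0.11, 0.11, 0.05 and -0.06 (adjusted p = 0.981). The 95% confidence interval of the mean was -0.20 to 0.00 for Tubg1 and -0.10 to 0.10 for Tubg2.

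The mitotic kinesins had 10 genes with tested probes, and by the brightest probe of each 4 were lower, 0 higher and 6 did not pass, the 4 being above 0 with median centring and no loess (0.017 to 0.41). By their brightest probe, 12.8% of all 17949 gene names with a tested probe were lower and 14.8% higher. Kif2c, a kinesin that takes microtubule ends apart at the centromere, had intensities of 796, 605, 629 and 536 after anti-TIM3, against 960, 675, 697 and 615 after IgG. Its log2 ratios were -0.27, -0.16, -0.15 and -0.20 (mean -0.19 ± 0.06, SD, n = 4; adjusted p = 0.00603), so the anti-TIM3 signal was the lower one on every array. Kif4, a chromokinesin that also works at the central spindle, had -0.23, -0.14, -0.16 and -0.09 (adjusted p = 0.0165). Kif15, which helps to keep the spindle bipolar, had -0.15, -0.11, -0.10 and -0.22 (adjusted p = 0.019). Kif22, which pushes chromosome arms away from the poles, had -0.05, -0.17, -0.10 and -0.12 (adjusted p = 0.0478). The second probe of Kif4 had a mean of -0.13 and that of Kif15 a mean of 0.04, and neither passed (adjusted p = 0.0532 and 0.381). Of these 4 genes, Kif2c alone passed in the deposited ratios (-0.24, adjusted p = 0.0195), and all 4 passed with the trends removed. Kif15 lost its call without replicate 4 (adjusted p = 0.081), and Kif22 without replicate 2, 3 or 4 (adjusted p = 0.191, 0.116 and 0.125).

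Kif11, the motor that slides spindle poles apart, had log2 ratios of -0.14, 0.20, 0.23 and 0.17, with replicate 1 alone below 0 (adjusted p = 0.173). Without replicate 1 its mean was 0.20 and it passed (adjusted p = 0.0158). Its dimmer tested probe had -0.25, -0.13, 0.02 and -0.17 (adjusted p = 0.0591). Kif14, a cytokinesis kinesin, had 0.01, 0.06, 0.08 and 0.20 (adjusted p = 0.131). Kif18a, which limits chromosome movement at metaphase, had -0.20, -0.06, -0.04 and 0.04 (adjusted p = 0.274). Kif20a and Kif23, which both act in cytokinesis, had -0.13, -0.10, -0.05 and -0.07 and -0.19, 0.06, 0.09 and 0.02 at their brightest probes (adjusted p = 0.0826 and 0.94). Replicate 1 was the lowest of the 4 arrays in all of these genes.

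Kifc1 is the minus-end-directed kinesin that focuses spindle poles, and no other member varied as much between arrays. At the brighter probe the intensities were 5443, 3989, 2827 and 1820 after anti-TIM3, against 3898, 3165, 2278 and 3433 after IgG. At the dimmer probe they were 2811, 1855, 1355 and 877 after anti-TIM3, against 2016, 1448, 1030 and 1539 after IgG. The anti-TIM3 signal was the higher one in replicates 1, 2 and 3 and the lower one in replicate 4, at both probes. The log2 ratios were 0.48, 0.33, 0.31 and -0.92 at the brighter probe and 0.48, 0.36, 0.40 and -0.81 at the dimmer one.

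With all 4 arrays neither Kifc1 probe passed (means 0.05 and 0.11, adjusted p = 0.856 and 0.686). Without replicate 4 the brighter probe had a mean of 0.38 and was called higher (adjusted p = 0.00441). Replicate 4 minus the mean of the other arrays was -1.29 at the brighter probe, with 4 of 26545 tested probes lower still, and -1.22 at the dimmer one, with 5 lower. The 2 Kifc1 probes were the only tested probes over 0.3 in replicates 1 to 3 and under -0.3 in replicate 4, limits set after seeing Kifc1. The 13 other tested probes within 200 kb of them had log2 ratios from -0.29 to 0.14 in replicate 4. The first accession listed for these probes is named Kifc5b in the RefSeq table, a close copy on chromosome 17, so which of the copies was read cannot be told apart.

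Among the transport kinesins, 3 of 22 tested probes (13.6%) were higher and 3 (13.6%) lower, near the 14.2% and 13.6% over all tested probes. Kif5b, a heavy chain of conventional kinesin, was higher at its bright probe, with intensities of 55954, 40529, 40428 and 36964 after anti-TIM3, against 45442, 40059, 35941 and 33159 after IgG. Its log2 ratios were 0.30, 0.02, 0.17 and 0.16 (adjusted p = 0.0319), with replicate 2 close to 0. It lost its call without replicate 1, 3 or 4 (adjusted p = 0.101, 0.0732 and 0.0839). It did not pass in the deposited ratios (0.06, adjusted p = 0.413) or with the trends removed (0.03, adjusted p = 0.679). The other Kif5b probe had a mean of 0.02 (adjusted p = 0.601).

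Kif1c, a carrier of vesicles, was lower at all 3 of its tested probes, although the brightest was above 0 (0.068) with median centring and no loess. At the brightest the intensities were 1940, 1073, 890 and 1031 after anti-TIM3, against 2438, 1199, 983 and 1077 after IgG. The log2 ratios there were -0.33, -0.16, -0.15 and -0.06 (mean -0.17 ± 0.11, SD, n = 4; adjusted p = 0.0223), and the other probes had means of -0.26 and -0.13 (adjusted p = 0.0122 and 0.046). In the deposited ratios the brightest passed (adjusted p = 0.0389) and the other 2 did not, and with the trends removed the probe at -0.13 lost its call (adjusted p = 0.206). The brightest lost its call without replicate 1 or 2 (adjusted p = 0.0599 and 0.0522).

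Kif1b, a carrier of mitochondria and synaptic vesicle precursors, and Kif13a, an endosomal motor that serves melanosome formation, were outside the rule for named genes and were named after their values were seen. One of 4 Kif1b probes was higher, with 0.10, 0.12, 0.25 and 0.26 (adjusted p = 0.0117), and its brightest had -0.03, 0.17, 0.17 and 0.26 (adjusted p = 0.055). One of 3 Kif13a probes was higher, with 0.17, 0.12, 0.14 and 0.52 (adjusted p = 0.0247), replicate 4 standing far above the others. The other Kif13a probes had means of -0.07 and -0.001 (adjusted p = 0.213 and 0.991).

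Of the other kinesins, 1 of 17 tested probes (5.88%) was higher and 5 (29.4%) lower, against 14.2% and 13.6% over all tested probes. Kif21b, a motor that also dampens microtubule growth, had probes called in both directions. The bright one had intensities of 21592, 16172, 12998 and 15915 after anti-TIM3, against 18696, 13305, 11481 and 14346 after IgG, with log2 ratios of 0.21, 0.28, 0.18 and 0.15 (mean 0.20 ± 0.06, SD, n = 4; adjusted p = 0.00493). The dimmer called probe had 937, 678, 575 and 532 after anti-TIM3, against 1111, 728, 593 and 587 after IgG, with -0.25, -0.10, -0.05 and -0.14 (adjusted p = 0.0378). On every array the bright probe was above 0 and the dimmer one below 0, though their genome positions lie within 1 kb of each other. The call of the bright probe held in the deposited ratios and with the trends removed (adjusted p = 0.0296 and 0.00787), and that of the dimmer one in neither (adjusted p = 0.0907 and 0.109). The third tested Kif21b probe had a mean of -0.01 and did not pass.

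Its relative Kif21a was lower at both tested probes, with means of -0.12 and -0.15 (adjusted p = 0.0452 and 0.0149). Kifc2, a minus-end-directed motor of neurons, was lower at its single tested probe, a dim one, with -0.08, -0.22, -0.12 and -0.27 (adjusted p = 0.0148), and lost its call without replicate 2 or 4 (adjusted p = 0.0554 and 0.064). Its ratio was -0.40 in the deposited values. Kifc3, a minus-end-directed motor that acts at cell junctions, was lower at the dimmer of its tested probes, with a mean of -0.29 (adjusted p = 0.00696), and had -0.05 at the brighter one (adjusted p = 0.378). Kif21a and Kifc3 were named after their values were seen. The 37 kinesin probes that did not pass, Kifc1 apart, had means from -0.16 (Kif7) to 0.14 (Kif1b), and 22 of them were below 0.

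Of 24 member genes with over 1 tested probe, 2 (Kif21b and Tubb2a) had probes called in both directions, against 4.91% of all 6054 gene names with over 1 tested probe. Among 8 pairs of probes of a gene that were both called, 2 were opposite in sign. The share over all such pairs on the arrays was not computed. In both genes the probe called higher was the poorer in G and C, with 23 of 60 bases against 33 in Tubb2a, and 24 against 32 in Kif21b. The remaining probe of each gene, which was not called, had 33.

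Among the tubulins, probes richer in G and C had the lower ratios. Pearson's r between the number of G and C bases and the mean log2 ratio was -0.68 over 22 tubulin probes and -0.27 over 55 kinesin probes, against -0.26 over all tested probes. Within kinesin classes it was -0.12 for mitotic, -0.14 for transport and -0.46 for the other kinesins. Over alpha tubulin probes it was -0.81, and over beta tubulin probes -0.62. These are descriptions across probes that share the 4 arrays, and probes are not independent replicates. Of 6 tubulin probes with at most 24 G or C bases, 4 were higher and 0 lower, where 20.9% of all such tested probes were higher and 8.43% lower. Of 13 tubulin probes with at least 30, 0 were higher and 7 lower, where the shares of all such probes were 5.38% and 21.9%. Kinesin probes with at most 24 had 2 higher and 2 lower of 20, and those with at least 30 had 1 higher and 6 lower of 12. These limits were set after the data were seen, and the part of base composition in the members' ratios was not tested.

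The ratio over all tested probes also rose at the bright end. Medians within intensity ranges lay between -0.044 and 0.027 from 6.5 to 15, and between 0.05 and 0.52 from 15 to 17. Of all 588 tested probes over 15 in mean log2 intensity, 56.6% were higher and 4.93% lower. The 6 tubulin probes in that range had 2 higher, 2 lower and 2 not passed, and the 1 kinesin probe there, of Kif5b, was higher. The Tubb5 probe that fell was low for its brightness: the 162 probes at 15.5 to 16 had a median of 0.15 and a 5th percentile of -0.05, against -0.14 for the Tubb5 probe.

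The arrays differed in how the members sat as a whole. The median over tubulin probes was -0.13, 0.004, -0.02 and -0.13 in replicates 1 to 4, and over kinesin probes -0.09, 0.02, 0.01 and -0.06, so replicates 1 and 4 were the lower in both families. Over all tested probes the medians were -0.02, 0.02, 0.01 and 0.009.

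Other parts of the microtubule system were read by the brightest tested probe of each gene, for which the shares over all gene names were 14.8% higher and 12.8% lower. Of 27 dynein and dynactin genes, the minus-end-directed motor and its activator, 7 were higher and 3 lower, with a median of 0.01. The 4 largest were the dynein intermediate chain Dync1i2 (0.28 ± 0.09, adjusted p = 0.00243), the dynactin subunit Dctn5 (0.26 ± 0.04, adjusted p = 0.00159), the light chain Dynll1 (0.24 ± 0.13, adjusted p = 0.0103) and the light intermediate chain Dync1li1 (-0.23 ± 0.18, adjusted p = 0.0244). Dynll1 and Dync1li1 did not pass in the deposited ratios (adjusted p = 0.767 and 0.116), and Dynll1, a bright probe at 15.84, also not with the trends removed (0.084, adjusted p = 0.18). Of the tested probes, 1 of 2 was called for Dync1i2 and 1 of 3 for Dctn5. Each SD is over 4 arrays.

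Of 14 genes listed as kinesin partners, such as light chains and cargo adaptors, 2 were higher and 3 lower, with a median of -0.05. The list also held Cenpe, itself a mitotic kinesin whose name the rule for members leaves out. It did not pass (0.06, adjusted p = 0.246). Mapk8ip1, the adaptor that links kinesin to JNK signalling, had the largest change, with log2 ratios of -0.50, -0.34, -0.35 and -0.54 (adjusted p = 0.000571), and both of its probes were lower. Racgap1, the partner of Kif23 in centralspindlin, had -0.38, -0.14, -0.13 and -0.26 (adjusted p = 0.00915). The light chain Klc1 had 0.16, 0.17, 0.25 and 0.25 at its brightest probe (adjusted p = 0.0041), while its other tested probe was lower. Trak1, a mitochondrial adaptor, had -0.01, 0.26, 0.28 and 0.18 (adjusted p = 0.0273). Racgap1 and Trak1 had 2 tested probes each, of which 1 was called. Both genes lost that call in the deposited ratios (adjusted p = 0.055 and 0.0782).

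Of 33 microtubule-binding genes on the array 30 were tested, 8 higher and 3 lower, with a median of 0.01. Dclk1, a doublecortin-like kinase, had 0.18, 0.46, 0.40 and 0.38 (adjusted p = 0.00167), and Tacc1, a centrosomal coiled-coil protein, had 0.23, 0.31, 0.35 and 0.41 (adjusted p = 0.00117). Numa1, which tethers microtubules at spindle poles, had -0.20, -0.30, -0.40 and -0.24 (adjusted p = 0.00222). Dclk1 and Tacc1 each had 2 of 3 tested probes higher, and Numa1 had 1 of 2 lower. Ckap5, a microtubule polymerase, had -0.50, -0.12, -0.10 and -0.25 (adjusted p = 0.0204), and one of its probes was higher.

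Of 49 genes for tubulin folding, modification, severing and nucleation, 9 were higher and 12 lower, with a median of -0.03. Subunits of the chaperonin that folds tubulin differed in direction: Cct3 had -0.51, -0.45, -0.36 and -0.52 (adjusted p = 0.000287) and Cct6a -0.47, -0.44, -0.39 and -0.31 (adjusted p = 0.000448), whereas Cct5 had 0.41, 0.34, 0.38 and 0.37 (adjusted p = 0.000393). The brightest probes of all 3 kept their sign and their call in the deposited ratios and with the trends removed. Cct3 had 2 tested probes, of which 1 was called. Pfdn1, a prefoldin subunit that hands tubulin to the chaperonin, had 0.42, 0.19, 0.22 and 0.40 (adjusted p = 0.00284).

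The cells carried the markers of their label. All 9 melanocyte marker genes on the array were tested, and 6 were higher after anti-TIM3, 5 of which (Dct, Pmel, Tyrp1, Slc45a2 and Sox10) lost their call in the deposited ratios (adjusted p = 0.355, 0.055, 0.175, 0.619 and 0.0666). All but Sox10 were over 15 in mean log2 intensity, Slc45a2 also lost its call with the trends removed (adjusted p = 0.375), and the other Sox10 probe was lower. Of 9 leukocyte markers 6 were tested and 0 called, and Ptprc, Itgam and Adgre1 were not well above background on any array. Cd8a passed in the deposited ratios (0.25, adjusted p = 0.0367) and Cd4 with the trends removed (0.099, adjusted p = 0.0419). Of 6 neuronal markers 2 were tested and 0 called. The neuronal marker Syn1 had a mean log2 intensity of 12.58, above the 10.18 of the melanocyte marker Tyr. Syn1 passed with the trends removed (0.23, adjusted p = 0.00311). Of 8 fibroblast and endothelial markers 4 were tested and 2, Col1a1 (0.13, adjusted p = 0.0472) and Col3a1 (0.12, adjusted p = 0.032), were higher. Neither passed with the trends removed (adjusted p = 0.0974 and 0.352), and Col1a1 did not in the deposited ratios (adjusted p = 0.0651). Pdgfra passed in the deposited ratios (0.46, adjusted p = 0.0385). Col1a1 had a mean log2 intensity of 11.92, against 6.68 for Col3a1, 6.62 for Lum and 6.86 for Pdgfra. The summed intensity of these 4 genes, most of it from Col1a1, was 1987, 4862, 7964 and 5576 after anti-TIM3, against 1941, 4510, 7215 and 4770 after IgG. The sum was lowest in replicate 1, and its part in the members' ratios was not tested.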

How the data were processed

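RNA of 4 pairs of cultures was compared on 4 Agilent 2-colour arrays. Spot intensity of both channels, on a linear scale, comes from the deposited scanner output, written by Agilent Feature Extraction (9 per the submitters' processing notes, 9.5.1.1 in the file headers). The authors' value table gives log10 of Cy5 over Cy3; its ratios equal the scanner files' ratios within 1e-06 for all 45018 spots of each array, with column medians of 0, and these were converted to log2 here. Mean signal and median background were corrected with normexp (offset 50), normalised within each array by loess with control spots at weight 0, and tested against 0 by lmFit and eBayes of limma (3.58.1, R 4.3.3; two-sided, Benjamini-Hochberg over 26545 tested probes, threshold 0.05). Outlier spots were left out and spots of a probe averaged. Intensities given for a channel are those after loess. Precision is limited by the number of arrays, and the spread behind each p-value is that between passages.

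The members and gene lists were chosen with earlier results of these data known. Values by array were given for up to 10 genes per direction with the largest ratio of the brightest tested probe among those that passed with the same sign on all arrays. They were also given for every tubulin, for genes called in both directions, for tested mitotic kinesins, and for up to 4 passing genes of each other list. Of the 94 member probes, 71 were named by accession, 20 by symbol and 3 by synonym in a RefSeq table of GRCm38.p6; sequences and coordinates (mm7 per the file headers) are those of the files, and the sequence of the Tuba2 probe is not reported here. The fit was tested on simulated ratios: of 67 probes changed by 0.25, 47.8% were called, and of 67 changed by 0.5, 98.5%. There were 7 false calls among the unchanged probes. The simulated noise was independent between probes and held no trend on dye, intensity or base composition. The rate of false calls in the real data therefore cannot be read from it. The alternatives concerned the normexp offset, the normalisation, dim probes, outlier spots, the variance prior, pairing within arrays, a minimum change and leaving out replicates. Removal of trends on intensity and base composition was added after the data were seen.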

Additional observations from a re-analysis of the deposited data

Results flagged for a closer look

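In 6 of the 77 tested member probes 1 array lay far from the other 3 (Dixon's test, which chance passes in about 1 group in 20). Both Kifc1 probes had replicate 4 far below the rest, at -0.92 and -0.81, where replicates 1 to 3 ran from 0.31 to 0.48. The Kif13a probe called higher had replicate 4 far above, at 0.52, where the others ran from 0.12 to 0.17. Replicate 1 lay far below the others at single probes of Kif4 (-0.29, others -0.10 to -0.07), Kif3a (-0.17, others -0.003 to 0.02) and Kif24 (-0.15, others -0.06 to -0.05), none of which passed.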

How the results depend on the processing

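The numbers of kinesin probes higher, kinesin probes lower, tubulin probes higher and tubulin probes lower were 4, 12, 4 and 9. They were 0, 0, 0 and 0 with each array centred on its median and no loess, where limma called 0 of all 26545 tested probes (unadjusted p under 0.05: 968 higher and 38 lower, of them 2 and 0 kinesin and 3 and 0 tubulin probes). The median of all tested probes was then 0.15, against 0.12 for kinesin and 0.28 for tubulin probes. With that centring the brightest called probes of 11 genes turned in sign: Kif15 (0.073), Kif1c (0.068), Kif22 (0.41), Kif2c (0.017), Kif4 (0.19), Tuba2 (0.14), Tuba3 (0.27), Tuba4 (0.48), Tubb2c (0.17), Tubb4 (0.21) and Tubb5 (0.51); relative to the median of all tested probes, Kif15, Kif1c, Kif2c and Tuba2 stayed below it. Tuba1 turned in the deposited ratios (-0.076) and with the trends removed (-0.026). Against a minimum change of 1.2-fold the counts were 0, 0, 1 and 0, the 1 being Tuba6, and with the channels fitted separately and no replicate block (the array, whose passage both channels share) also 0, 0, 1 and 0. The deposited ratios gave 3, 7, 3 and 8, a normexp offset of 10 gave 2 kinesin probes higher, and removal of the trends left 2 tubulin probes higher. Leaving out each replicate gave 3 to 5, 6 to 11, 2 to 4 and 5 to 8; the 6 kinesin probes lower came without replicate 2 and without replicate 4, the 2 tubulin probes higher without replicate 2, and the 5 lower without replicate 4. Of 16 genes named by the rule and called by their brightest probe, the call was kept by 9 in the deposited ratios, 12 with the trends removed and 8 without replicate 4. Kif21a, also called by its brightest probe but named after its values were seen, is not among the 16. Tubb2b passed without replicate 3, its only array below 0 (0.21), Kif20a with the trends removed (-0.11), and Tuba8 in the deposited ratios (-0.46). The cause of these shifts was not tested.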
